A study of Rattus norvegicus with 24 samples.

Results

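The genes described here are the cadherins and protocadherins carried by an Affymetrix Rat RAE 230 2.0 array, measured in 6 brain regions of 4 groups of rats. They were taken as every probe set whose only platform gene symbol starts with Cdh or Pcdh, with Cdh5, the cadherin of vessel walls, left out. The 50 such probe sets represent 37 genes, and each gene was read from its brightest probe set, by mean log2(signal + 1) over the 24 arrays. A gene was kept where its signal was 100 or more on at least 3 arrays, which left 32 member genes of 12133 genes with 1 symbol that pass the same limit. A further 4 probe sets that match several clustered protocadherins were left out. Just inside the limit, with 3 arrays at 100 or more, were Cdh3, Cdh17 and Pcdha12. Just outside it were Cdh20 with 2 arrays and Cdh16, Cdh23 and Pcdh15 with 1, and Cdhr5 had 0.

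All rats were male and were taken at postnatal day 55 to 65. The 8 SHR (spontaneously hypertensive rats, an inbred strain used as a genetic model of attention deficit hyperactivity disorder) were studied beside 8 WKY (Wistar-Kyoto) controls, and the 4 SD-PCB (Sprague-Dawley rats exposed to polychlorinated biphenyls, the environmental model) beside 8 SD controls. A single array per strain group was hybridised for each of the hippocampus, the prefrontal cortex, the dorsal and the ventral striatum, the vermis of the cerebellum, and the substantia nigra taken with the ventral tegmental area (nigra/VTA). The labels used here give neither the dose and timing of the exposure nor how many rats contributed to an array.

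Cadherins are calcium-dependent adhesion proteins of the cell surface. Classical cadherins of type I and type II bind partners of the same kind on the neighbouring cell and are anchored to actin through catenins, and in the brain they take part in sorting neurons into nuclei and layers and in building synapses. Non-clustered protocadherins, among them the delta-1 and delta-2 groups, signal through other partners, while the clustered alpha, beta and gamma protocadherins are read from tandem promoters of which each neuron uses a small choice, giving neurons a surface identity.

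By subfamily, the members were 4 type I classical cadherins (Cdh1, Cdh2, Cdh3, Cdh15), 7 type II classical cadherins (Cdh6, Cdh7, Cdh8, Cdh10, Cdh11, Cdh12, Cdh22), the GPI-anchored Cdh13, the 7D cadherin Cdh17 and 3 atypical or cadherin-related genes (Cdhr1, Cdhr2, Cdhr4). The protocadherins were the delta-1 member Pcdh9, 5 delta-2 members (Pcdh8, Pcdh10, Pcdh17, Pcdh18, Pcdh19), Pcdh20, 2 alpha members (Pcdha12, Pcdha13) and 7 beta members (Pcdhb6, Pcdhb9, Pcdhb12, Pcdhb17, Pcdhb19, Pcdhb21, Pcdhb22). In these arrays 14 members had a signal of 100 or more on all 24 arrays, and 9 reached it on fewer than 12 arrays. Detection calls are not given, so whether a low signal is above background is unknown.

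The genes lie in groups on the chromosomes of the GRCr8 assembly. Of the 30 members with a RefSeq record there, 6 lie on chromosome 19 (Cdh1, Cdh3, Cdh8, Cdh11, Cdh13, Cdh15), 5 on chromosome 2 (Cdh6, Cdh10, Cdh12, Pcdh10, Pcdh18) and 4 on chromosome 15 (Pcdh8, Pcdh9, Pcdh17, Pcdh20). All 7 beta members lie on chromosome 18 within 182.8 kb, from position 29320391 to 29503142, and Cdh2 is on the same chromosome. Promoters, as RefSeq windows of 250 bases before to 50 after the start of each gene, were held for 21 members. The beta members are shown because the 5 with a window (plus strand, GRCr8) share 1 stretch of 13 bases, GGTGGCGCTGCAG, given in capitals in the lines that follow, which was found by looking for the longest stretch common to them.
Pcdhb6: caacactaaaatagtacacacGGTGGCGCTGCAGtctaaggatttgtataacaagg
Pcdhb9: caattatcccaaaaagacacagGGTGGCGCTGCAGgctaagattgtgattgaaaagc
Pcdhb12: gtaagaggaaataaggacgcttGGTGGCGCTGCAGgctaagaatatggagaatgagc
Pcdhb19: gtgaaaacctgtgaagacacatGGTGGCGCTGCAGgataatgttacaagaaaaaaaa
Pcdhb21: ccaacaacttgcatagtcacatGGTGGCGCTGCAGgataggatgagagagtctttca

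The stretches printed are chr18:29320141-29320196 for Pcdhb6, chr18:29379236-29379292 for Pcdhb9, chr18:29413636-29413692 for Pcdhb12, chr18:29478752-29478808 for Pcdhb19 and chr18:29492137-29492193 for Pcdhb21. Counted on both strands, the stretch occurs in 13 of 33469 promoters of the table (0.0388%), 12 of them among the 19 beta protocadherin promoters, and in 0 of the 17 windows of members outside the clusters. The 12 include the 5 printed here, from which the stretch was derived. Of 16 alpha and gamma protocadherin promoters, 0 had the full stretch. The stretch includes the letters CGCT, the core of the element that clustered protocadherin promoters are known to share and that the insulator protein CTCF binds, but those 4 letters alone are in 60.9% of all promoters. A match of letters is a description and no measure of binding.

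Before the members are compared, the arrays themselves differ by strain group. All 24 were scaled to a trimmed mean near 500, but the median signal over all probe sets was 89.0 to 126.2 on the SD-PCB arrays and 130.7 to 183.8 on the SD arrays, with 131.7 to 178.2 in SHR and 108.9 to 152.6 in WKY. Signals below 50 made up a median of 39.5% of probe sets on the SD-PCB arrays and 20.3% on the SD arrays. The region labels were checked on marker genes: 10 of 10 medium spiny neuron markers were higher in each striatal region, 8 of 8 cerebellar markers in the vermis, 4 of 6 hippocampal markers in the hippocampus, 4 of 6 markers of cortical projection neurons in prefrontal tissue (and as many in the hippocampus, so that this list does not single it out) and 5 of 6 midbrain dopamine neuron markers in nigra/VTA. In nigra/VTA the summed dopamine neuron markers ran from 5723 to 20000, with SD-PCB lowest.

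Differences are given as log2(signal + 1), averaged over arrays, with the standard error (SE) of a limma fit of region and strain group over 24566 probe sets and Benjamini-Hochberg adjusted p over all of them. A region was set against the mean of the other 5, and a gene counted as higher or lower at an adjusted p under 0.05 with a log2 difference of at least 1. In bulk tissue, fewer cells of a type and less RNA per cell cannot be told apart. By this rule 18 members differed in at least 1 region, 4 of them in more than 1, and 14 in none. The share of all probe sets past the rule in at least 1 region was not counted, so these numbers are a description. The same holds for the counts by subfamily that follow.

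The vermis held the most, with 4 members higher and 9 lower, so 13 of 32 members against 19.9% of all probe sets tested. Among the 9, Pcdh8 reached a signal of 100 only in other regions, so the limit on signal favoured its fall. Among the 4, Pcdha12 met that limit only with a vermis array counted, so the limit favoured its rise. The median member difference there was -0.32, against 0.15 over all probe sets. The counts elsewhere were 3 members in the dorsal striatum (all higher, 4.31% of all probe sets), 1 in the ventral striatum (higher, 1.62%), 2 in the prefrontal cortex (1 higher and 1 lower, 4.73%), 1 in the hippocampus (lower, 2.16%) and 3 in nigra/VTA (2 higher and 1 lower, 7.32%). Dorsal minus ventral striatum gave 1 member, higher in dorsal, against 0.191% of all probe sets. In the vermis 5 of 9 oligodendrocyte markers were also lower, and their part in the lower members was not tested.

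**Figure D1:**
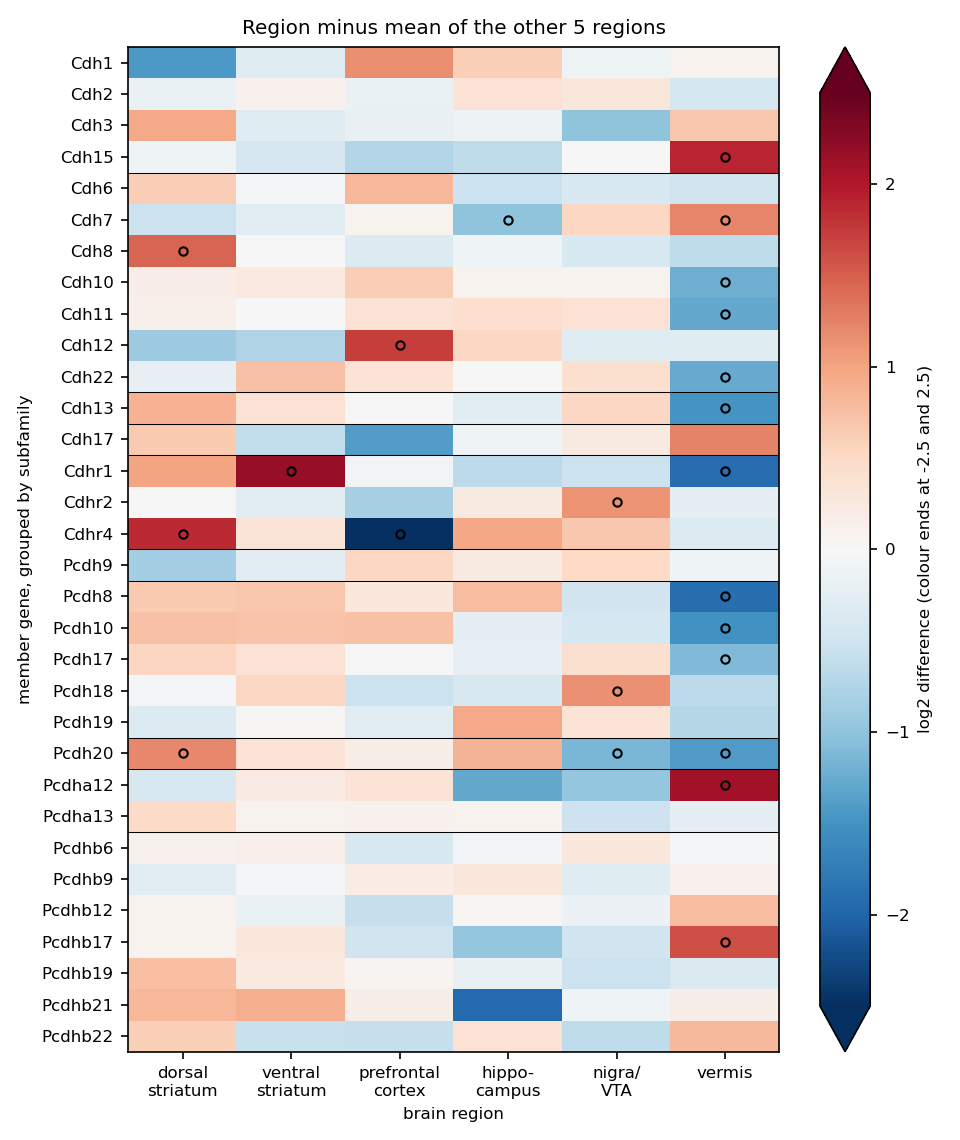
Log2 difference of each of the 32 member genes (rows, grouped by subfamily with black lines between) in each of 6 brain regions (columns), as the region minus the mean of the other 5; red is higher, blue lower, and open circles mark differences past the rule. The vermis column holds 13 circles, the other columns 1 to 3 each, and the darkest cell, Cdhr4 in the prefrontal cortex at -3.48, lies past the end of the colour scale.

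Among type I cadherins, Cdh15, the M-cadherin of muscle cells, was high in the vermis. Its signals there were 135.4 in SD, 173.5 in SD-PCB, 302.6 in SHR and 287.1 in WKY, and 20.1 to 132.5 with a median of 55.0 on the other 20 arrays. No array of another region reached the lowest vermis array, although the margin in SD was small. The difference was 1.91 (SE 0.34, adjusted p = 6.91e-05). Cdh2, the N-cadherin of neural tissue and synapses, was at 2165 to 4782 on all 24 arrays and differed by less than the log2 limit in every region, with a vermis difference of -0.43. Cdh1, the E-cadherin of epithelia, had signals from 1.41 to 175.5 and no region past the rule, and neither had Cdh3, the P-cadherin.

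Of the type II cadherins, 6 of 7 passed the rule somewhere: Cdh7, Cdh10, Cdh11 and Cdh22 in the vermis, Cdh7 also in the hippocampus, Cdh8 in the dorsal striatum and Cdh12 in the prefrontal cortex. Cdh8 marked the dorsal striatum, with signals of 1212 in SD, 1658 in SD-PCB, 1311 in SHR and 1554 in WKY, against 370.2 to 1019.6 (median 471.1) on the other 20 arrays. The 4 dorsal arrays lay above all others, and the difference was 1.45 (SE 0.15, adjusted p = 7.18e-08). Against the ventral striatum alone, where Cdh8 was at 437.5 in SD, 1019.6 in SD-PCB, 439.2 in SHR and 721.0 in WKY, it was 1.21 higher (SE 0.19, adjusted p = 0.0021). That count of 1 falls to 0 when the SD or the SHR arrays are left out, where 0.0204% and 0% of all probe sets passed.

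Cdh12, a brain cadherin also called N-cadherin 2, was highest in the prefrontal cortex, at 305.9 in SD, 330.6 in SD-PCB, 303.1 in SHR and 206.1 in WKY. Its other 20 arrays ran from 20.1 to 166.0 with a median of 98.0, so the groups did not overlap. The difference was 1.74 (SE 0.35, adjusted p = 9.25e-04). Cdh7 was even across strain groups in the vermis, at 1258 in SD, 1280.2 in SD-PCB, 1175 in SHR and 1395 in WKY. It was higher there by 1.21 (SE 0.19, adjusted p = 1.68e-05), although 1 other array, SD-PCB nigra/VTA at 1291, lay within the vermis range. In the hippocampus Cdh7 was at 576.3 in SD, 406.5 in SD-PCB, 251.0 in SHR and 260.9 in WKY, lower by 1.01 on average (difference -1.01, SE 0.19, adjusted p = 9.50e-04). The SD array did not share this fall, being 0.14 above the mean of its other regions, and the difference sits at the limit: with quantile normalization, a pseudocount of 16, or without SD-PCB, SHR or WKY, 0 members passed in the hippocampus, and without SD 3 did.

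Cdh10, Cdh11 and Cdh22 were the type II members that were low in the vermis. Cdh10 was at 214.6 in SD, 196.9 in SD-PCB, 336.2 in SHR and 264.6 in WKY there, below all of the other 20 arrays (428.9 to 795.2), with a difference of -1.21 (SE 0.14, adjusted p = 1.70e-07). Cdh11, the OB-cadherin of mesenchymal cells, was -1.27 (SE 0.15, adjusted p = 1.14e-07) in the vermis and its ranges overlapped, with the second probe set at -1.37. Cdh22, the cadherin of pituitary and brain, was -1.26 (SE 0.18, adjusted p = 4.46e-06), but its second probe set did not share this, at 0.36 (adjusted p = 0.26). Cdh6 passed in no region.

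Cdh13, the T-cadherin that is held to the membrane by a lipid anchor and has no cytoplasmic part, was also low in the vermis. It was at 193.1 in SD, 223.5 in SD-PCB, 450.1 in SHR and 330.4 in WKY, while the other 20 arrays ran from 431.7 to 1383. Of the vermis arrays, SHR alone reached into that range. The difference was -1.48 (SE 0.16, adjusted p = 2.34e-08), and the other 2 probe sets of Cdh13 gave -2.88 and -1.96.

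All 3 cadherin-related genes passed in at least 1 region. Cdhr1, the photoreceptor cadherin, was at 847.4 in SD, 694.1 in SD-PCB, 915.2 in SHR and 593.7 in WKY in the ventral striatum. No other array exceeded 439.6, a dorsal striatum array, and the median of the other 20 was 187.4. The ventral difference was 2.18 (SE 0.22, adjusted p = 1.40e-07), and the dorsal striatum, at 319.9 to 439.6, came second with a difference of 0.98 that stays just under the log2 limit. In the vermis Cdhr1 was at 38.3 to 114.7, with a difference of -1.91 (SE 0.22, adjusted p = 8.58e-08).

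Cdhr4 was low in the prefrontal cortex, at 67.7 in SD, 8.01 in SD-PCB, 143.7 in SHR and 16.1 in WKY, where the other 20 arrays had a median of 369.3 and a lowest value of 140.8, so that only the SHR array reached their range. The difference was -3.48 (SE 0.41, adjusted p = 8.29e-07). In the dorsal striatum it was at 338.5 in SD, 382.4 in SD-PCB, 2070 in SHR and 1305 in WKY. The difference there was 1.86 (SE 0.41, adjusted p = 0.00197), but the SD and SD-PCB arrays lay within the range of the other regions. The summed choroid plexus markers were also low in the prefrontal cortex, at 1586 to 4741 against 9185 to 23290 in the hippocampus. They were below the hippocampus in the ventral striatum (3668 to 4969) and the dorsal striatum (4301 to 5779) too. In the dorsal striatum the median signal of Cdhr4 was 843.8. The part of choroid plexus tissue in the Cdhr4 differences was not tested.

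Cdhr2, a cadherin of intestinal microvilli, was higher in nigra/VTA by 1.13 (SE 0.20, adjusted p = 1.20e-04). Its signals there were 748.2 in SD, 192.1 in SD-PCB, 739.1 in SHR and 433.3 in WKY, so the SD-PCB array was apart from the rest and lay inside the range of the other regions (108.3 to 409.8). That same array had the lowest summed dopamine neuron markers of the region. Cdh17 passed in no region.

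**Figure D2:**
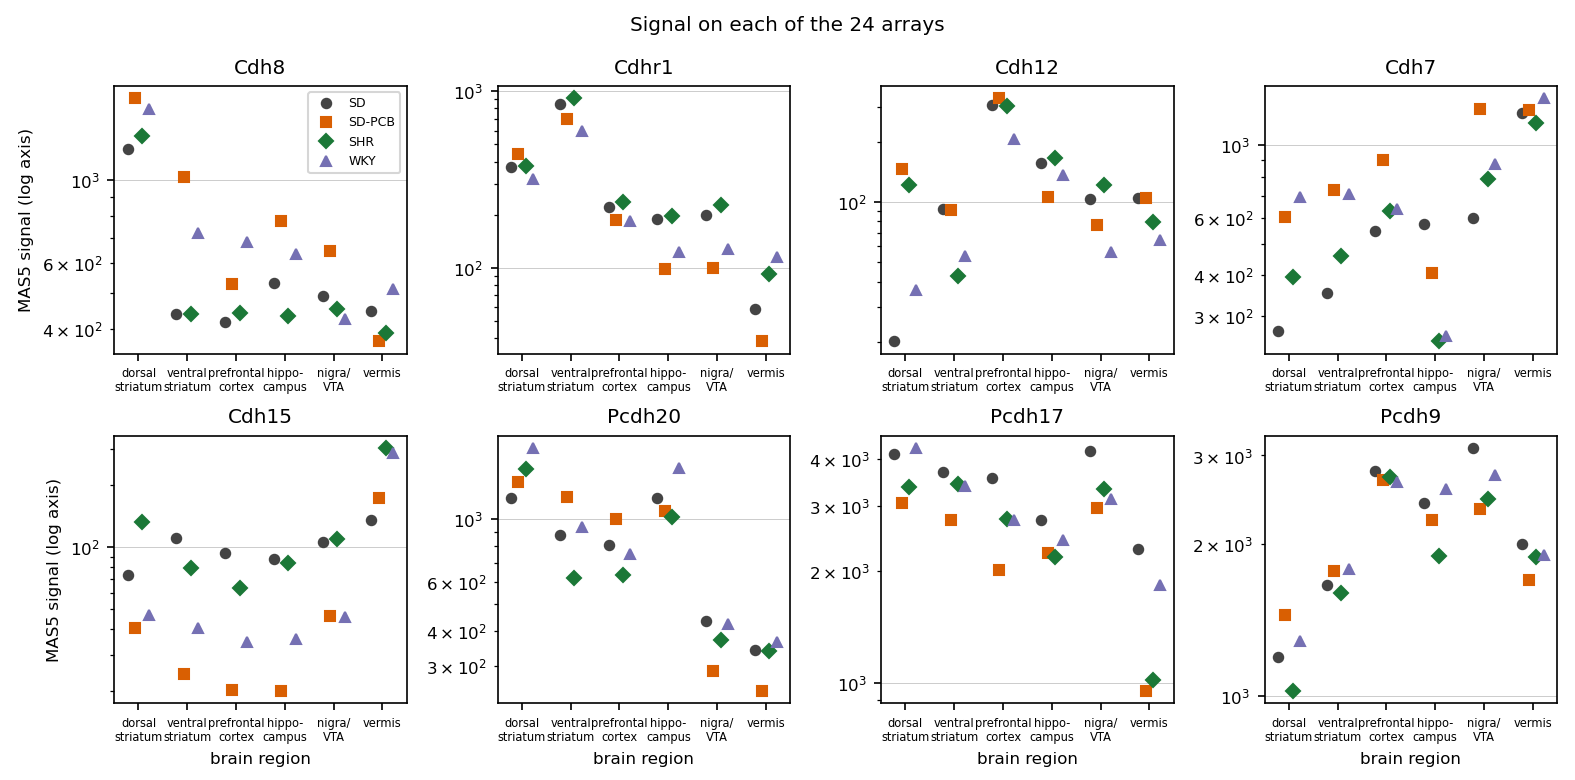
MAS5 signal (log axis) of 8 member genes on each of the 24 arrays, by brain region, with a marker for each strain group. All 4 dorsal striatum points of Cdh8, all 4 ventral striatum points of Cdhr1, all 4 prefrontal points of Cdh12 and all 4 vermis points of Cdh15 lie above every other point of the same gene, while the 4 dorsal striatum points of Pcdh9 lie below.

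Of the 5 delta-2 protocadherins 3 were low in the vermis, Pcdh8 among them only by values that the filter on signal favoured. Pcdh17, which acts at synapses of corticobasal circuits, was at 2299 in SD, 950.2 in SD-PCB, 1016 in SHR and 1829 in WKY there, and at 2011 to 4285 on the other 20 arrays. The SD vermis array alone lay inside that range. The difference was -1.10 (SE 0.11, adjusted p = 1.49e-08), and both its other probe sets were lower, 1 of them at -1.44. Pcdh10, which takes part in removing excitatory synapses, was at 228.8 in SD, 102.6 in SD-PCB, 170.8 in SHR and 237.8 in WKY, lower on average (difference -1.52, SE 0.21, adjusted p = 2.30e-06), with 2 arrays of other regions, WKY hippocampus at 236.3 and WKY nigra/VTA at 236.9, inside that range. Pcdh8, an activity-induced protocadherin, was at or under 145.2 on all arrays, and its vermis value of -1.89 (SE 0.63, adjusted p = 0.0181) rests on signals between 3.81 and 51.7. It reached 100 on 4 arrays, all of other regions, so the filter on signal favoured this fall, which is a description. SD-PCB went the other way in the vermis, by 0.38.

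Pcdh18 differed in nigra/VTA instead, where it was at 523.0 in SD, 789.6 in SD-PCB, 187.5 in SHR and 658.7 in WKY. Of these the SHR array alone lay inside the range of the other regions (75.1 to 440.1), and the difference was 1.14 (SE 0.29, adjusted p = 0.00454). Nigra/VTA arrays also had the highest median sums of meningeal and fibroblast markers (7868 to 24290, with 2 of 12 genes past the rule) and of oligodendrocyte markers (39230 to 70190, 5 of 9 genes). Their part in the Pcdh18 and Cdhr2 differences was not tested. Without the SD-PCB arrays, 1 member in place of 3 passed in nigra/VTA (8.17% of all probe sets). Pcdh19, the X-linked delta-2 member known from an epilepsy of girls, was highest in the hippocampus at 431.2 to 504.6, against 137.8 to 463.6 elsewhere, with a difference of 0.95 that is under the log2 limit.

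Pcdh20 was at 616.3 or more on every array of the 4 forebrain regions and at 435.3 or less in nigra/VTA and vermis. It was at 1189 in SD, 1353 in SD-PCB, 1509 in SHR and 1793 in WKY in the dorsal striatum and at 1016 to 1522 in the hippocampus. In nigra/VTA it was at 435.3, 287.1, 371.6 and 423.2 in the same order of groups, and in the vermis at 343.0, 244.2, 340.9 and 366.8. The differences were 1.20 in the dorsal striatum (SE 0.15, adjusted p = 1.64e-06), -1.14 in nigra/VTA (SE 0.15, adjusted p = 2.34e-06) and -1.41 in the vermis (SE 0.15, adjusted p = 2.74e-08). The second probe set gave 1.18, -1.01 and -2.04, and also passed in the hippocampus. With arrays centred on their median Pcdh20 was -0.95 in nigra/VTA, short of the log2 limit, and the count there was 2 higher and 0 lower.

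Pcdh9, the delta-1 member, passed the adjusted p but not the log2 limit in the dorsal striatum, where it was at 1199 in SD, 1452 in SD-PCB, 1023 in SHR and 1286 in WKY. All of the other 20 arrays were higher, at 1600 to 3104, and the difference was -0.84 (SE 0.09, adjusted p = 1.30e-07). The ranges of the second, dimmer probe set overlapped. It was at 22.8 to 224.9 (median 48.9) in the dorsal striatum and 46.9 to 245.9 (median 96.2) elsewhere. Pcdhb19 was at 357.5 to 472.0 in the dorsal striatum against 134.2 to 353.7 elsewhere (difference 0.75). Pcdh9 and Pcdhb19 were the 2 members with ranges apart that the rule did not count. They were singled out after their values were seen. How many of all probe sets have ranges apart was not counted, so this is a description.

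Among clustered protocadherins, Pcdhb17 and Pcdha12 were higher in the vermis. Pcdhb17 was at 780.2 in SD, 306.9 in SD-PCB, 213.6 in SHR and 422.3 in WKY, and within each strain group the vermis array was the highest of the 6, although the range of the other 20 arrays (11.1 to 486.3) overlapped. The difference was 1.61 (SE 0.32, adjusted p = 3.02e-04). Pcdha12, at 227.2, 49.7, 99.0 and 49.1 in the vermis and at a median of 17.6 elsewhere, gave 2.11 (SE 0.70, adjusted p = 0.0187) from low signals. Pcdha13 and the 6 other beta members passed in no region. Beta genes are close copies of each other, and their probe sets may take up signal from more than 1 of them, so each beta value is uncertain as to the gene.

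Strain groups were compared over the 6 regions, each region giving 1 difference, with an adjusted p under 0.05 as the rule. Since the regions were dissected from 1 set of rats per group, the p-values speak of how alike the regions are and not of how alike animals are, and strain, exposure and any handling shared by a group cannot be told apart.

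In the genetic model, SHR minus WKY, 5 members were higher and 2 lower, 7 of 32 against 25.5% of all probe sets. The split depends on the scaling. It was 2 higher and 4 lower after quantile normalization (22.1% of all probe sets) and 2 and 3 after cyclic loess normalization (21.6%). With arrays centred on their median it was 2 and 10 (29.6%). Centring moved the median difference of all probe sets from 0.14 to -0.19. Without the dorsal striatum, the hippocampus or the ventral striatum arrays, 3 members passed in place of 7. The share of all probe sets fell too, from 25.5% to 17.4%, 16.8% and 15.7% in the same order. Cdh13 and Pcdhb17 passed under all of these scalings in the direction given here, as did Pcdhb21, whose values are limited by the filter on signal.

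Cdh13 was at 450.1 to 1383 (median 1005) in SHR and at 330.4 to 840.4 (median 513.1) in WKY. The strain ranges overlapped across regions, but SHR was higher in 6 of 6 regions, by 0.45 to 1.18. The mean difference was 0.80 (SE 0.16, adjusted p = 0.0013). SHR was also above SD, by 0.70 (SE 0.16, adjusted p = 0.00309), and WKY minus SD was -0.10 (adjusted p = 0.704). The other 2 probe sets gave 0.40 and 0.80 for SHR minus WKY, with adjusted p = 0.352 and 0.0608.

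Pcdhb17 was lowest in SHR, at 11.1 to 213.6 (median 70.8), next in SD-PCB at 69.4 to 306.9 (median 88.1), then in WKY at 109.3 to 422.3 (median 170.3), and highest in SD at 223.0 to 780.2 (median 360.4). The SHR and SD ranges did not overlap. SHR minus WKY was -1.38 (SE 0.34, adjusted p = 0.00511) and SHR minus SD was -2.48 (SE 0.34, adjusted p = 1.28e-05), each with 1 sign in 6 of 6 regions. Pcdhb21 ran the other way between SHR, at 18.2 to 146.4 (median 73.6), and WKY, at 0.939 to 35.8 (median 13.8). These ranges overlapped, SHR was higher in 6 of 6 regions, and the difference was 2.72 (SE 0.66, adjusted p = 0.00451), but the probe set reached 100 on only 4 of the 24 arrays, 3 of SD and 1 of SHR. With 0 WKY and 0 SD-PCB arrays at 100, it passed the filter only through groups where it was high, so its differences from those groups are a description.

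Cdh11 was lower in SHR, at 570.4 to 1393 (median 1037), than in WKY, at 412.3 to 2134 (median 1710.1). It was lower in 5 of 6 regions, the vermis being the exception at 0.47, with a mean difference of -0.50 (SE 0.15, adjusted p = 0.02). The second probe set gave -1.47 (SE 0.27, adjusted p = 4.62e-04). Pcdhb22 (1.85, adjusted p = 0.0439), which had 4 SHR and 0 WKY arrays at 100 or more, Cdh15 (0.97, adjusted p = 0.0485) and Cdhr2 (0.62, adjusted p = 0.0307) were higher in SHR in 6 of 6 regions with the deposited scaling, and did not pass after quantile or cyclic loess normalization. Meningeal and fibroblast markers were higher in SHR than in WKY for 10 of 12 genes (summed signal 4402 to 21040 in SHR and 2451 to 7868 in WKY) and endothelial and pericyte markers for 8 of 11. After quantile normalization these counts were 8 and 6. Their part in the strain differences of the members was not tested.

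The added comparisons with SD place both strains. SHR minus SD had 3 members higher and 4 lower (23.3% of all probe sets), and WKY minus SD 1 higher and 3 lower (17.5%). These 2 comparisons share the SD arrays. In WKY minus SD, meningeal and fibroblast markers were lower for 9 of 12 genes, astrocyte markers for 7 of 8 and midbrain dopamine neuron markers for 4 of 6; after quantile normalization these counts were 5, 1 and 1. With centred arrays the direction turned for 2 of the astrocyte markers. In SHR minus SD, endothelial and pericyte markers were higher for 5 of 11 and lower for 1. Astrocyte markers were higher there for 2 of 8 and lower for 4, and oligodendrocyte markers higher for 2 of 9 and lower for 3. Their part in the members' differences was not tested. Cdh22 stood out in both. It was at 447.4 to 3005 (median 2250.2) in SD, 1133 to 2249 (median 1458) in SD-PCB, 2176 to 6888 (median 4719) in SHR and 2699 to 6635 (median 5364) in WKY. Both SHR and WKY were above SD in 6 of 6 regions, by 1.22 (SE 0.19, adjusted p = 6.59e-05) and 1.43 (SE 0.19, adjusted p = 1.55e-05), whereas SHR minus WKY was -0.22 (adjusted p = 0.429). The second probe set gave 0.38 (adjusted p = 0.326) and 0.90 (adjusted p = 0.0214).

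The other members of these comparisons followed no single direction. In SHR minus SD, Cdhr4 was higher by 1.44 (SE 0.43, adjusted p = 0.0156), while Pcdh18 gave -1.14 (SE 0.30, adjusted p = 0.00717), Cdh11 -0.49 (SE 0.15, adjusted p = 0.0225) and Pcdh17 -0.44 (SE 0.12, adjusted p = 0.00916). For 3 of these genes the other probe sets did not pass in SHR minus SD: they gave -0.18 for Cdh11, -0.20 and -0.14 for Pcdh17, and 0.36 and 0.09 for Cdh13. The second probe set of Cdh11 was instead higher in WKY than in SD, by 1.29 (adjusted p = 0.00193), where the brightest did not pass. In WKY minus SD, Pcdhb21 gave -3.01, Pcdhb17 -1.10 and Pcdhb12 -0.92, all lower in 6 of 6 regions. Pcdhb21 had 3 SD and 0 WKY arrays at 100 or more, so its fall was favoured by the filter. Of these 3, Pcdhb21 alone passed after both quantile and cyclic loess normalization, as all 7 named members of SHR minus SD did. With arrays centred on their median the splits were 3 higher and 2 lower for SHR minus SD (22.2% of all probe sets) and 7 higher and 1 lower for WKY minus SD (39.0%).

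**Figure D3:**
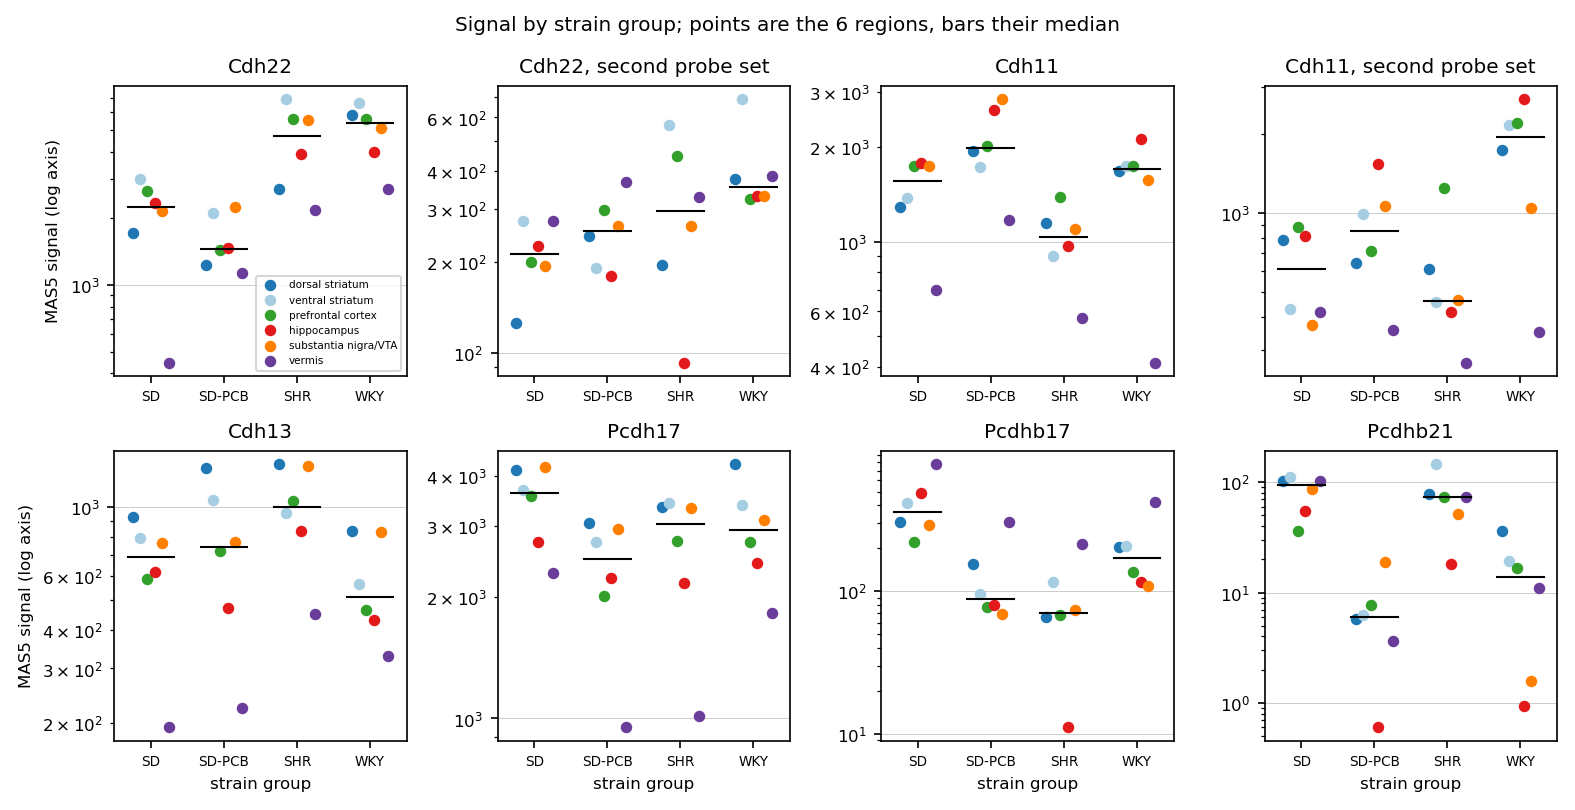
MAS5 signal (log axis) of 6 member genes, with the second probe set of Cdh22 and of Cdh11, by strain group; each point is 1 of the 6 regions and the bar is their median. The Cdh22 medians are 2250.2 in SD, 1458 in SD-PCB, 4719 in SHR and 5364 in WKY, and the SD points of Pcdhb17 lie above all SHR points.

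In the environmental model, SD-PCB minus SD, 3 members were higher and 10 lower, 13 of 32 against 36.8% of all probe sets, and the medians were -0.34 over the members and -0.22 over all probe sets. The count rests on the scaling. It was 0 higher and 3 lower after quantile normalization (19.8% of all probe sets) and 1 and 3 after cyclic loess normalization (22.4%). With arrays centred on their median it was 14 higher and 5 lower (56.4%), and the median of all probe sets moved to 0.51. Of the 10 lower members 5 (Cdh3, Cdh17, Pcdha13, Pcdhb21, Pcdhb22) had 0 SD-PCB arrays at 100 or more. They passed the filter on signal only through other groups, SD among them, which favoured a fall, so their falls are given as values and support nothing. The SD-PCB arrays had the lowest medians over all probe sets, and the part of this in the low values was not tested. Astrocyte markers were lower in SD-PCB for 7 of 8 genes, a direction that turned for all 7 with centred arrays, and endothelial markers higher for 5 of 11; their part was not tested either.

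Pcdh17 and Pcdhb17 were lower after quantile and cyclic loess normalization too, and so was Pcdhb21, within the limit of the filter. Pcdh17 was at 950.2 to 3055 (median 2490.3) in SD-PCB and at 2299 to 4213 (median 3623) in SD, lower in 6 of 6 regions by 0.30 to 1.27 (differences -0.30 to -1.27). The mean difference was -0.63 (SE 0.12, adjusted p = 3.01e-04), with -0.47 (adjusted p = 0.00123) and -0.16 (adjusted p = 0.549) from the other 2 probe sets, but it was 0.10 with arrays centred on their median. Pcdhb17, with the values given for its 4 groups, was -1.76 (SE 0.34, adjusted p = 3.73e-04). Pcdhb21, which passed the filter on 3 SD arrays and 1 SHR array, was at 0.599 to 19.0 (median 6.03) in SD-PCB and 36.4 to 112.4 (median 94.2) in SD, ranges that did not overlap, with -3.62 (SE 0.66, adjusted p = 2.16e-04).

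Type II cadherins held all 3 members that were higher. Cdh11 was at 1177 to 2848 (median 1985) in SD-PCB and 703.8 to 1786 (median 1557) in SD, higher in 6 of 6 regions by 0.52 on average (SE 0.15, adjusted p = 0.0103). Cdh7 gave 0.59 (adjusted p = 0.0252) and Cdh8 0.45 (adjusted p = 0.0273), each in 5 of 6 regions. None of the 3 passed after quantile or cyclic loess normalization: Cdh11, for example, gave 0.36 (adjusted p = 0.0937) and 0.42 (adjusted p = 0.051). The remaining lower members were Pcdha13 (-1.44), Pcdhb12 (-1.04) and Cdhr2 (-0.78), with 1 sign in 6 of 6 regions, and Cdh3 (-2.53), Cdh17 (-2.51), Pcdhb22 (-2.32) and Cdh15 (-1.34), with 5 of 6. None of these 7 passed after quantile or cyclic loess normalization.

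**Figure D4:**
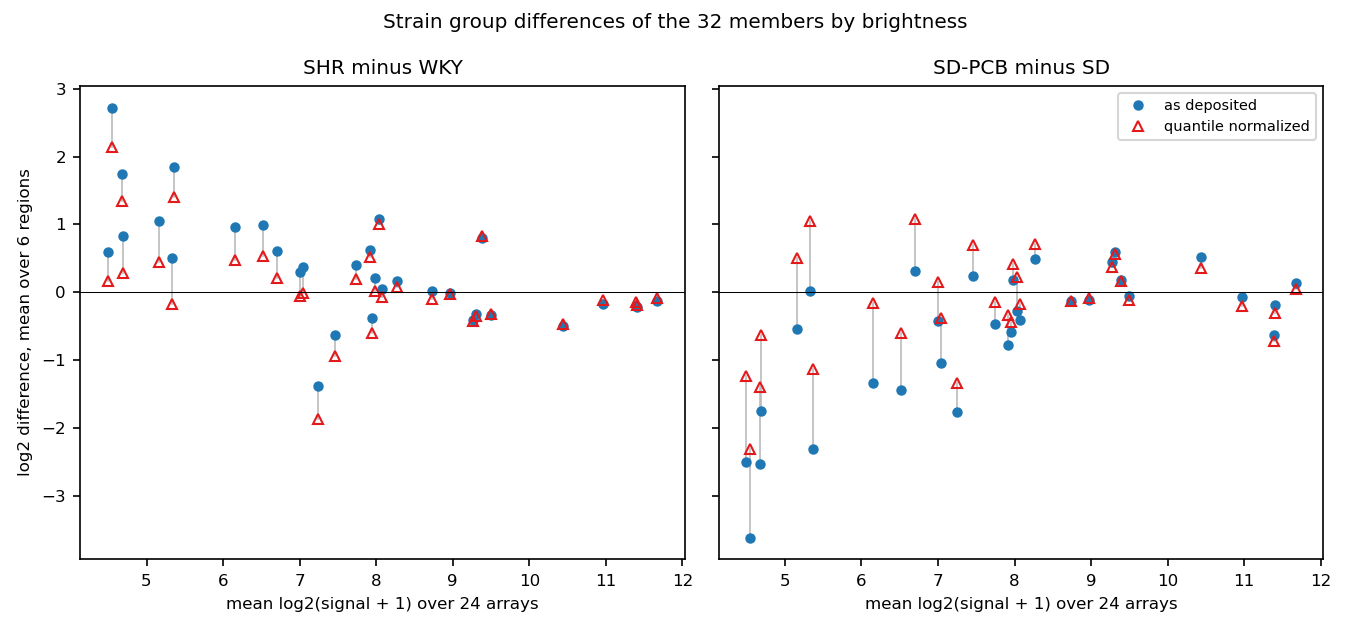
Strain group difference of each of the 32 members (y axis, log2, mean over 6 regions) against its mean log2(signal + 1) over 24 arrays (x axis), for SHR minus WKY and SD-PCB minus SD; blue circles use the deposited scaling, red triangles quantile normalization, and a grey line joins the values of a gene. The lines are long for dim members, such as Pcdhb21, which moves from -3.62 to -2.31 in SD-PCB minus SD, and short for bright ones such as Pcdh17, which moves from -0.63 to -0.72.

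Whether the 2 models differ was tested as the SHR minus WKY difference minus the SD-PCB minus SD difference, which use separate arrays. It passed for 15 members, 12 above 0 and 3 below, against 43.3% of all probe sets. After quantile or cyclic loess normalization it passed for 5 above and 4 below (27.1% and 28.7% of all probe sets). With arrays centred on their median the split turned to 4 above and 13 below (54.1% of all probe sets). Of the 12 above 0, Cdh3, Cdh17, Pcdha12, Pcdha13, Pcdhb21 and Pcdhb22 had 0 SD-PCB arrays at 100 or more. The filter on signal favoured their values, which are a description. Cdh11 differed by -1.02 (SE 0.22, adjusted p = 7.63e-04), being lower in SHR than WKY and higher in SD-PCB than SD, with 1 sign in 6 of 6 regions, and its second probe set gave -1.93. Pcdhb21 differed by 6.34 (SE 0.94, adjusted p = 2.54e-05) in the opposite sense, a value the filter on signal favoured in both models.

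Genes that work with cadherins were read from lists. Their counts are a description, to be read beside the share of all probe sets past the rule. That share was 25.5% in SHR minus WKY, 36.8% in SD-PCB minus SD and 19.9% in the vermis. Of 11 catenins and junction partners tested, 0 passed in SHR minus WKY, and 1 rose and 4 fell in SD-PCB minus SD: Ctnna2, the neural alpha-catenin, by 0.67 (adjusted p = 1.90e-06), and, among those lower, Ctnna1 (-0.55) and Pkp4 (-0.55). All 4 falls turned to rises with arrays centred on their median, whereas Ctnna2 passed under each scaling. In the vermis Jup, or plakoglobin, alone was higher, by 1.10, but not with centred arrays. Of 13 other cadherin superfamily genes, 4 were higher and 1 lower in the vermis, led by the giant cadherin Fat2 (4.48) and by Ret (2.98), a receptor kinase with cadherin-like domains that was also 3.26 higher in nigra/VTA. In SHR minus WKY 1 of them was higher, the calsyntenin Clstn3 (1.96, adjusted p = 0.00153), and 1 lower, Fat1 (-0.32), and in SD-PCB minus SD 4 were lower, led by Fat2 (-3.28), Fat3 (-2.27) and Fat4 (-1.10). After quantile normalization 2 of these 4 were lower, and 2 other genes of the list were higher. The SD-PCB arrays had the lowest medians over all probe sets, and the part of this in the falls of list genes was not tested.

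Of 12 partners and regulators of protocadherins, 3 were lower in SHR than WKY, against 25.5% of all probe sets in either direction. They were Cyfip2 (-1.34, adjusted p = 8.24e-08) and Abi2 (-0.88, adjusted p = 6.31e-06), parts of the actin-regulating WAVE complex, and Ctcf (-0.74, adjusted p = 0.00334), the insulator protein. These 3 passed under each scaling. In SD-PCB minus SD 1 was higher, the cohesin subunit Rad21 (0.44). The kinases Ptk2b (-1.70) and Ptk2 (-1.19), on which clustered protocadherins act, were lower in the vermis. Of 5 genes of cadherin processing, the gamma-secretase subunit Ncstn was higher in SHR than WKY (0.65), though under no other scaling, and the protease Furin higher in SD-PCB than SD (0.52). Of 4 nectins, 0 passed in SHR minus WKY and Nectin2 was lower in SD-PCB (-3.24) and higher in the vermis (2.57). In other regions, 2 of the 4 were higher in the hippocampus (2.16% of all probe sets past the rule) and 1 lower in the dorsal striatum (4.31%).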

How the data were processed

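RNA from 6 brain regions of 28 male rats was hybridised to 24 arrays, 1 per strain group and region. The deposited values are linear intensities, 1 per probe set, and per the submitters' processing notes they are MAS5 signals, version not stated. Each array has a 2% trimmed mean near 500. Of 31099 probe sets, 57 controls were left out. The 24566 with a signal of 100 or more on at least 3 arrays were fitted as log2(signal + 1) with limma 3.58.1 (R 4.3.3), with region and strain group as terms, 15 residual degrees of freedom, a variance trend and two-sided tests, adjusted over all probe sets; the script was tested on simulated data. The arrays have no replicate within a strain group and region, so their number limits precision. The members and gene lists were chosen with earlier results of these data known, and the SHR minus SD and WKY minus SD comparisons were added after seeing the data. Named per region were up to 4 higher and 3 lower members by size, per strain comparison up to 6 rises and 6 falls with 1 sign in 6 of 6 regions, and per list up to 3 genes past the rule; other members are named to account for all. Gene symbols came from the platform table, which gave 20826 probe sets 1 symbol, 436 several and 9780 none. Other normalizations, filters, pseudocounts, thresholds, probe sets and sets of arrays were tried.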

Additional observations from a re-analysis of the deposited data

Results flagged for a closer look

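Sets of differences were searched for outliers, over the 6 regions for strain comparisons and over the 4 strain groups for regions. In 1 of 30 sets a value lay far from the rest: Pcdha13 in SD-PCB minus SD, where the vermis difference was -4.98 (signals of 7.83 in SD-PCB and 278.6 in SD). Chance flags about 1 set in 20. For 15 members SHR minus WKY differed from SD-PCB minus SD in limma's test of the difference itself. The 3 with a lower value in the genetic model were Cdh11 (-1.025), Cdh7 (-0.9111) and Cdh8 (-0.8529). Values above 0 were those of Pcdh17 (0.4212), Cdh13 (0.6185), Cdhr1 (0.8729), Cdhr2 (1.398), Pcdhb12 (1.42), Cdh15 (2.304), Pcdha13 (2.439), Pcdha12 (2.594), Cdh17 (3.098), Pcdhb22 (4.164), Cdh3 (4.279) and Pcdhb21 (6.344). The last 6 of these genes had 0 SD-PCB arrays at 100 or more. They passed the filter on signal only through other groups, which favoured values above 0, so theirs support nothing. The split between values above and below 0 turned with arrays centred on their median.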

How the results depend on the processing

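Of 633 values of the 42 named differences under alternatives, 527 kept direction and call, 103 kept direction and lost the call, and 3 reversed; 12 of 42 differences kept their call under every alternative tried for them. Reversed were Pcdhb22 in SHR minus WKY (-0.4459) and Cdh11 in SD-PCB minus SD (-0.1889), both with the array median as covariate, and Pcdh17 in SD-PCB minus SD with centred arrays (0.09681). Counts of members passing moved as follows, and the causes were not tested. A log2 limit of 0.5 gave 9 in dorsal striatum, 3 in ventral striatum, 6 in prefrontal cortex and 3 in hippocampus. The filter on mean signal, which tests fewer genes, gave 1 in prefrontal cortex, 7 for SD-PCB minus SD (31.5%) and 7 between the models (40.4%). In the hippocampus, quantile normalization and a pseudocount of 16 gave 0, and no filter, no variance trend, array weights and the second probe set 2 each. Array weights gave 2 for dorsal minus ventral striatum (0.541% of all probe sets) and 13 for SHR minus WKY (38.7%). Centred arrays gave 12 for SHR minus WKY (29.6%) and 8 for WKY minus SD (39.0%). The array median as covariate gave 0 in SHR minus WKY (2.91%), in SD-PCB minus SD (0 of all probe sets) and between the models (2 of all probe sets), and 1 for WKY minus SD (0.269%), so these counts say nothing of the members. A fit on SHR and WKY alone gave 13 (30.2%) and an adjusted p under 0.1 gave 11 for SHR minus WKY. Quantile and cyclic loess normalization gave 3 and 4 for SD-PCB minus SD (19.8% and 22.4%), 2 and 2 for WKY minus SD (11.2% and 10.6%), and 9 and 9 between the models (27.1% and 28.7%). The second probe set gave 4 for SHR minus SD. Leaving out 1 strain group gave 3 to 5 in dorsal striatum (5 without WKY), 0 to 3 in hippocampus, 1 to 3 in nigra/VTA and 0 to 1 for dorsal minus ventral striatum. Leaving out 1 region gave 3 to 9 for SHR minus WKY, 4 to 7 for SHR minus SD (4 without hippocampus), and 2 to 6 for WKY minus SD (2 without ventral striatum). Region is a term of the fit, so strain groups were compared within regions. Signal over background is unknown and limits the dim members most.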

Other observations

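The 4 probe sets that match several clustered protocadherins are no members, and their values were described without a test. A gamma probe set with 13 symbols had signals of 1801 to 3093 on the 6 SHR arrays and 1063 to 1848 on the 6 SD arrays, and was higher in SHR than in WKY in 6 of 6 regions. The other gamma probe set, with 14 symbols, ran from 53.5 to 323.4 and was lowest in WKY vermis. It did not share that direction, being lower in SHR than in WKY in both striatal regions, the prefrontal cortex and nigra/VTA. In the hippocampus and the vermis it was higher in SHR. The 2 alpha probe sets, each with 15 symbols, ran from 1559 to 3674 and from 332.7 to 863.8. Both were lower in SHR than in WKY in every region but the vermis.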
